A study of Mus musculus with 6 samples.

Results

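AMPA receptor subunits and the transmembrane AMPA receptor regulatory proteins (TARPs) were followed in neurons of the preBötzinger Complex (preBötC), the brainstem site that generates the inspiratory rhythm. The set was taken by name: the 4 subunit genes Gria1, Gria2, Gria3 and Gria4 and the 6 TARP genes Cacng2, Cacng3, Cacng4, Cacng5, Cacng7 and Cacng8. All 10 were among the 49568 gene names in the files. Each sample pooled 15 neurons drawn one at a time into a micropipette from a slice of 1 mouse at postnatal day 2. The mice were Dbx1CreERT2; Rosa26tdTomato animals, in which tamoxifen-inducible Cre turned on tdTomato in cells from Dbx1-expressing progenitors. The 3 Dbx1 samples held neurons with tdTomato, and the 3 non-Dbx1 samples held neuronal somata without it from mice of the same cross. A neuron of Dbx1 lineage in which Cre had not acted would carry no fluorescence and would count as non-Dbx1. The paper found En1, a marker of another interneuron class, and no Evx1 in the sample titled Pos1. It proposes that En1-expressing interneurons may have entered that sample by accident. The sample titled Pos1 is Dbx1 replicate 1 here, and whether it held such neurons was not tested.

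AMPA receptors are tetramers of the GluA1 to GluA4 proteins, which Gria1 to Gria4 encode, and carry most fast excitatory transmission between neurons. Excitatory transmission through these receptors is needed for the preBötC to produce its rhythm. GluA2 that has been edited at its pore makes the channel almost impermeable to calcium, so the proportion of GluA2 sets how much calcium enters. TARPs bind the receptor, bring it to the synapse and slow its gating. Type I TARPs (Cacng2, Cacng3, Cacng4 and Cacng8, encoding stargazin, γ-3, γ-4 and γ-8) and type II TARPs (Cacng5 and Cacng7, encoding γ-5 and γ-7) differ in these effects.

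The pore site is shown because it is what sets GluA2 apart, and because the files hold RPKM per gene and cannot show whether it was edited. These stretches of 42 coding bases come from GENCODE vM21 transcripts (GRCm38), and the capitals mark the glutamine codon at the edited position.
Gria1: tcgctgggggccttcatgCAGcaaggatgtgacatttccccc
Gria2: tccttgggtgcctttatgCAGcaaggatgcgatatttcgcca
Gria3: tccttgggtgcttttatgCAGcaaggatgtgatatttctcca
Gria4: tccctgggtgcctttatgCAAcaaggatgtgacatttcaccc
In each gene the stretch lay within exon 11 of the transcript used. The Gria2 stretch runs from 80706890 to 80706931 on the minus strand of chromosome 3. The others run from 57243076 to 57243117 on chromosome 11 (plus, Gria1), from 41610247 to 41610288 on chromosome X (plus, Gria3) and from 4464116 to 4464157 on chromosome 9 (minus, Gria4). The genomic codon reads as glutamine in all 4, and in Gria2 transcripts the editing enzyme ADAR2, from Adarb1, changes its reading to arginine.

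The ends of the TARP coding sequences are shown because type I and type II differ there. Each line gives the last 24 coding bases before the stop codon, with the last 4 codons in capitals.
Cacng2: gccaaccgccggACCACGCCCGTA
Cacng3: gccaacagacgtACCACGCCTGTC
Cacng4: ctgaaccggcggACGACTCCCGTG
Cacng8: ctcaacaggaaaACCACGCCCGTG
Cacng5: gaccagatgtcaTCATCTCCCTGC
Cacng7: ctccacatctccACTTCGCCGTGC
Translated, the last 4 codons were the same as those of Cacng2 in 4 of 4 type I genes and in 0 of 2 type II genes. In type I TARPs these residues bind the PDZ domains of PSD-95 and its relatives, the scaffold of the excitatory synapse. On GRCm38 the stretches end at 77995152 on chromosome 15 (minus strand, Cacng2), 122768843 on chromosome 7 (plus, Cacng3) and 107734783 on chromosome 11 (minus, Cacng4). For Cacng8, Cacng5 and Cacng7 they end at 3415602 on chromosome 7 (plus), 107877355 on chromosome 11 (minus) and 3366945 on chromosome 7 (plus).

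Each file gave RPKM, the reads of a gene scaled by its exon length and by the reads on all genes of that sample. Depth ranged from 6464675 to 9432958 reads on genes per sample. Neuronal markers were high in all samples, with a sum over 6 genes between 993 and 1708 RPKM. Dbx1 itself had reads in 0 of the 6 samples, so that gene could not check the labels. Some libraries also held transcripts of other cells. The 4 haemoglobin genes summed to between 89.6 and 505 RPKM in Dbx1 and between 732.5 and 13946 in non-Dbx1, and the 6 endothelial and pericyte markers to between 0.0627 and 0.682 and between 3.06 and 69.4. Non-Dbx1 replicate 1 had the highest sum of the 8 oligodendrocyte lineage markers, at 434 RPKM against 19.9 to 73.6 in the other samples. Motor neuron markers summed to 120.2 RPKM in non-Dbx1 replicate 3 and to at most 20.2 elsewhere. Most of the 120.2 was Prph, at 94.96 RPKM, with Isl1 at 13.3 and no Isl1 reads in any other sample. Chat was also highest in non-Dbx1 replicate 3, at 3.999 RPKM, but Mnx1 had no reads in it. Its Slc5a7, at 7.91 RPKM, was below the 10.9 of non-Dbx1 replicate 2 and the 8.52 of Dbx1 replicate 3. Whether this sample held motor neurons was not tested. The 7 astrocyte markers summed to between 240.2 and 855. Most of this was Fabp7, from 205 to 812 RPKM, and every other astrocyte marker was at most 17.8 in a sample. The highest endothelial and pericyte sum, 69.4 in non-Dbx1 replicate 2, was mostly Cldn5 at 63.7. In these pooled samples, fewer neurons with a transcript and less transcript per neuron cannot be told apart.

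All 10 genes had reads in all 6 samples, but over a wide range of levels. Mean RPKM over the 6 samples was 33.9 for Cacng4, 28.8 for Cacng3, 24.3 for Gria4, 22.6 for Cacng2, 16.0 for Gria2 and 10.2 for Gria1. It was 3.93 for Cacng5, 2.83 for Gria3, 0.697 for Cacng8 and 0.415 for Cacng7. The order of the group means differed, although Gria4 led in Dbx1 only through replicate 3, at 48.7 RPKM. In Dbx1 replicates 1 and 2, at 15.1 and 20.1, Gria4 was below Cacng2, Cacng3 and Cacng4. In Dbx1 neurons the group means ran from Gria4 at 27.9 through Cacng2 at 24.9 and Cacng4 at 23.9 to Cacng3 at 22.9, and in non-Dbx1 neurons from Cacng4 at 43.9 through Cacng3 at 34.6 and Gria4 at 20.6 to Cacng2 at 20.3. The receptor RNA was mostly Gria4, Gria2 and Gria1, and the TARP RNA mostly Cacng4, Cacng3 and Cacng2. For none of the 9 neighbouring pairs in this order did the difference pass the test against the spread between samples. The lowest adjusted p was 0.281 (exact two-sided sign-change permutation test on log2(RPKM + 1), 6 samples, Benjamini-Hochberg over 9 pairs). The smallest raw p that 6 samples allow in this test is 0.0312. A single pair at that p could not pass after adjustment over 9 pairs, so the test cannot decide about any 1 step. The pairs were also set by sorting these same means. The widest steps were from Gria1 to Cacng5, with a mean difference of 1.22 on the log2(RPKM + 1) scale, and from Gria3 to Cacng8, with 1.11, and in each the first gene was above the second in 5 of 6 samples. Gria4 was above Cacng2 in 2 of 6 samples although its mean was higher.

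**Figure D1:**
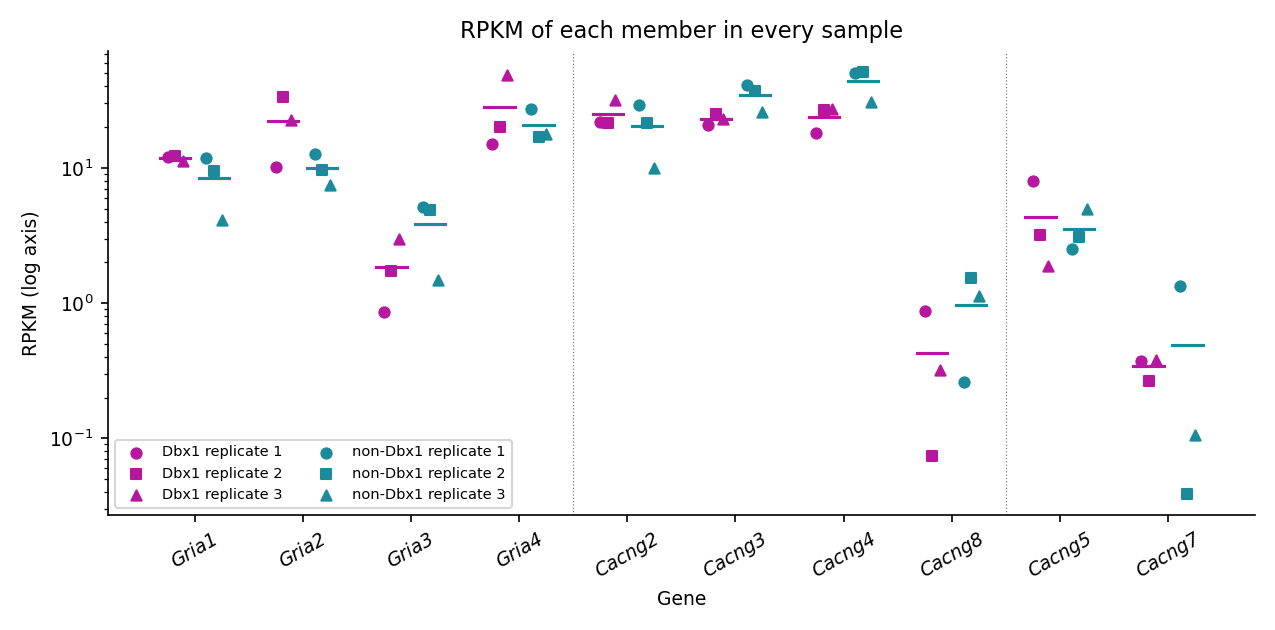
RPKM (log axis) of the 10 genes in each of the 6 samples. Each point is a sample, with Dbx1 in magenta and non-Dbx1 in blue-green, and bars are group means. For Cacng3 and Cacng4 all 3 Dbx1 points lie below all 3 non-Dbx1 points, and for the other genes the groups overlap.

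The order also depended on the exon length by which reads were divided. The steps between RPKM values gave the length used for each gene, and for every member but Cacng2 it was longer than the merged exons. For Gria4, Cacng3, Cacng5 and Cacng8 the recovered length equalled the summed length of all distinct annotated exons, in which bases shared by overlapping exons are counted more than once. It was 9198 bases for Gria4, where the merged exons cover 6305. The ratio of recovered to merged length was 2.11 for Gria3, 2.05 for Gria1, 1.77 for Cacng5, 1.56 for Gria2 and 1 for Cacng2, whose annotated exons do not overlap. With merged lengths, the mean was 43.8 RPKM for Cacng3, 37.2 for Cacng4, 35.4 for Gria4, 24.9 for Gria2, 22.6 for Cacng2 and 20.8 for Gria1. Cacng3 then stood above Cacng4 in 6 of 6 samples (exact permutation p = 0.0312, adjusted p = 0.141), where deposited RPKM put Cacng4 above Cacng3 in 5 of 6. For Gria1, Gria2, Gria3, Cacng4 and Cacng7 the length matched neither sum, and the smallest length that gave whole reads was taken. A true length that is a multiple of it would raise their reads and merged-length RPKM by the same factor. Cacng5, Gria3, Cacng8 and Cacng7 remained the 4 lowest, at 6.95, 5.98, 1.07 and 0.514 RPKM. The length is the same in all samples, so it bears on levels between genes and hardly on differences between groups.

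**Figure D2:**
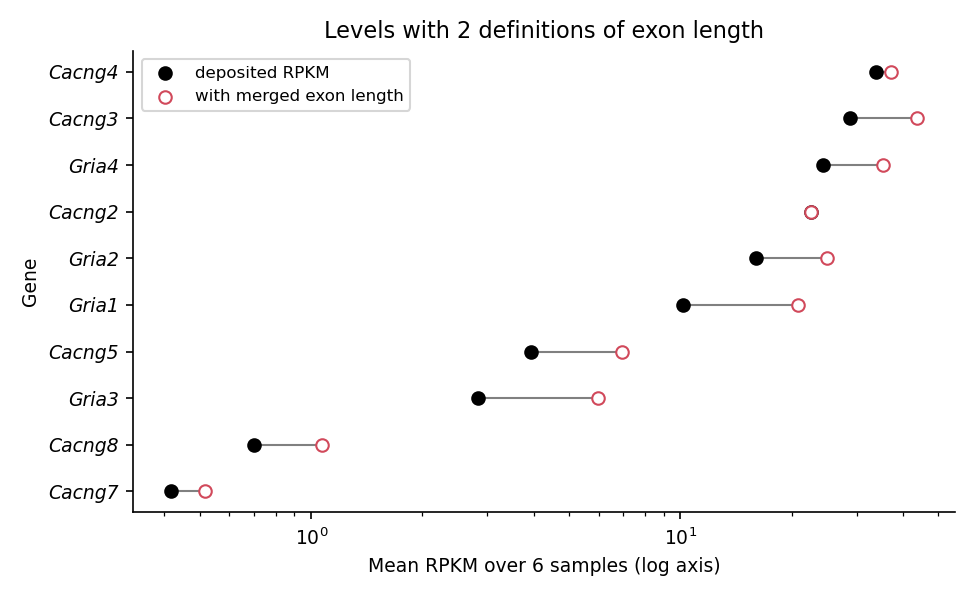
Mean RPKM over 6 samples (log axis) for each gene, as deposited (filled) and with the merged exon length of GENCODE vM21 (open). Gria1 moves from 10.2 to 20.8 and Gria3 from 2.83 to 5.98, while Cacng2 stays at 22.6.

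The comparison of Dbx1 with non-Dbx1 neurons asks whether receptor genes are expressed at other levels in neurons of this lineage than in their neighbours. L2FC is the mean log2(RPKM + 1) of Dbx1 minus that of non-Dbx1, and intervals are 95% limma intervals. At a limma FDR under 0.1 the count was 0 of 10, against 0.00568% of the 17614 genes tested. The lowest FDR among them was 0.912, and voom on the recovered reads also gave 0 of the 9 genes it tested. At an unadjusted limma p under 0.05 there was 1 of 10, Cacng4, against 5.20% of all genes, 2.73% higher and 2.48% lower in Dbx1. L2FC was above 0 for 5, against 50.8% of all genes, and below 0 for 5, with a median of 0.03 beside 0.01 over all tested genes. The intervals were wide, and on this scale the difference of a low gene such as Cacng7 or Cacng8 is smaller than its fold in RPKM.

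**Figure D3:**
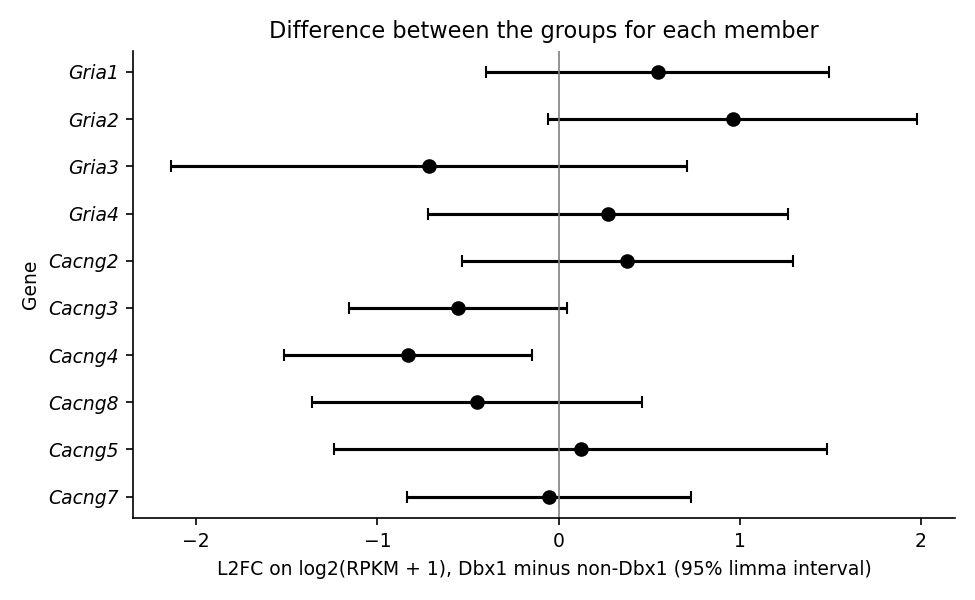
L2FC of each gene (Dbx1 minus non-Dbx1, on log2(RPKM + 1)) with its 95% limma interval. The interval of Cacng4 lies below 0, from −1.52 to −0.15, and those of the other 9 genes include 0.

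Among the subunits, Gria2 (ENSMUSG00000033981, chromosome 3 from 80681450 to 80802835, GRCm38) had the largest L2FC. Its RPKM was 10.2, 33.3 and 22.6 in Dbx1 neurons, compared with 12.6, 9.71 and 7.42 in non-Dbx1 neurons, from 1696 to 6081 reads. Dbx1 replicates 2 and 3 were above all non-Dbx1 samples and replicate 1 lay within their range. The means were 22.0 ± 11.6 and 9.92 ± 2.61 (SD, n = 3), and the L2FC was 0.96 (standard error 0.446, interval −0.06 to 1.98, limma FDR = 0.912). It was 1.41 without Dbx1 replicate 1 and 0.60 without Dbx1 replicate 2.

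Gria1 (ENSMUSG00000020524, chromosome 11 from 57011387 to 57330244) encodes GluA1, the subunit best known for its traffic to the synapse in plasticity. RPKM was 12.1, 12.2 and 11.3 in Dbx1 neurons, compared with 11.8, 9.47 and 4.11 in non-Dbx1 neurons. The Dbx1 samples were nearly alike, and only non-Dbx1 replicate 3 was far below them. The L2FC was 0.55 (standard error 0.415, interval −0.40 to 1.49, limma FDR = 0.943) and 0.15 without that sample.

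Gria4 (ENSMUSG00000025892, chromosome 9 from 4417896 to 4796234) encodes GluA4, a subunit of rapid channels that is abundant in the hindbrain. RPKM was 15.1, 20.1 and 48.7 in Dbx1 neurons, compared with 27.01, 17.04 and 17.8 in non-Dbx1 neurons. Dbx1 samples were both the lowest and the highest, and the L2FC of 0.27 (interval −0.72 to 1.27, limma FDR = 0.967) turned to −0.20 without Dbx1 replicate 3.

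Gria3 (ENSMUSG00000001986, chromosome X from 41400854 to 41678601) encodes GluA3 and was the lowest subunit in every sample. RPKM was 0.865, 1.72 and 2.96 in Dbx1 neurons, compared with 5.09, 4.89 and 1.48 in non-Dbx1 neurons, from 143 to 870 reads. Non-Dbx1 replicates 1 and 2 were above all Dbx1 samples, and non-Dbx1 replicate 3 lay among them. The L2FC was −0.72 (standard error 0.624, interval −2.14 to 0.71, limma FDR = 0.951).

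Shares within each sample do not depend on scaling between samples and were compared as a description, without a test. How often shares of other genes separate the groups was not computed. Gria2 made up 26.7%, 49.5% and 26.4% of the summed Gria RPKM in Dbx1 neurons, compared with 22.4%, 23.6% and 24.04% in non-Dbx1 neurons. Every Dbx1 share was above every non-Dbx1 share, the nearest being 26.4% and 24.04%. The difference of the group means of 10.9 points came mostly from Dbx1 replicate 2, without which it was 3.22 points. Gria3 made up 2.26%, 2.55% and 3.47% in Dbx1 neurons, compared with 9.005%, 11.9% and 4.81% in non-Dbx1 neurons, all of the latter above the former. Shares of Gria4 ran from 29.8% to 57.8% and shares of Gria1 from 13.2% to 31.7%, with the groups overlapping. With merged exon lengths Gria2 averaged 32.7% and 22.1%, and its groups again did not overlap. The summed Gria RPKM was 38.2, 67.3 and 85.5 in Dbx1 neurons, compared with 56.5, 41.1 and 30.8 in non-Dbx1 neurons, which overlapped.

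Cacng4 (ENSMUSG00000020723, chromosome 11 from 107732357 to 107794557) encodes γ-4, a TARP that is high in the developing brain. RPKM was 18.1, 26.6 and 27.2 in Dbx1 neurons, compared with 49.9, 51.2 and 30.5 in non-Dbx1 neurons, from 563 to 1719 reads. All Dbx1 samples were below all non-Dbx1 samples, although non-Dbx1 replicate 3 was close to the highest of them. The means were 23.9 ± 5.11 and 43.9 ± 11.6 (SD, n = 3), a ratio of 0.546. The L2FC was −0.83 (standard error 0.300, interval −1.52 to −0.15), with a limma p of 0.0229 before and an FDR of 0.912 after adjustment (exact permutation p = 0.10, the smallest that 3 samples against 3 allow). Its unadjusted limma p was 0.0795 when Dbx1 replicate 1 was left out, 0.0669 when non-Dbx1 replicate 1 was and 0.0815 when non-Dbx1 replicate 2 was.

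Cacng3 (ENSMUSG00000066189, chromosome 7 from 122670492 to 122769393) encodes γ-3, the closest relative of stargazin. RPKM was 20.7, 24.9 and 23.1 in Dbx1 neurons, compared with 40.9, 37.0 and 26.0 in non-Dbx1 neurons. These groups also did not overlap, with non-Dbx1 replicate 3 again the nearest. The L2FC was −0.56 (standard error 0.264, interval −1.16 to 0.05, limma FDR = 0.912). Cacng3 and Cacng4 were 2 of 10 genes whose groups did not overlap, where 10.6% of all tested genes had such groups with 5.35% above and 5.24% below in Dbx1.

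Red cell and endothelial sums, like these 2 genes, were lower in every Dbx1 sample than in every non-Dbx1 sample. In non-Dbx1 replicates 1, 2 and 3 the haemoglobin sums were 13946, 1198 and 732.5 and the endothelial sums 4.78, 69.4 and 3.06. Cacng4 was 49.9, 51.2 and 30.5 there, and Cacng3 40.9, 37.0 and 26.0. Oligodendrocyte precursors are known to carry Cacng4, and the 8 markers of that lineage, all with reads, summed to between 19.9 and 73.6 RPKM in Dbx1 neurons, compared with 46.5 to 434 in non-Dbx1 neurons. Of these, Olig1 ran from 10.6 to 63.9 RPKM, with its highest value in Dbx1 replicate 3. Olig2 and Sox10 reached 28.1 and 46.0 RPKM and Mbp 155, each highest in non-Dbx1 replicate 1. Pdgfra, Cspg4 and Mog were at most 1.12, 0.140 and 0.905 RPKM in a sample. Without non-Dbx1 replicate 1, which had the highest oligodendrocyte and haemoglobin sums, the L2FC was −0.72 for Cacng4 and −0.43 for Cacng3. Without non-Dbx1 replicate 2, which had the highest endothelial sum, it was −0.70 and −0.50. Without non-Dbx1 replicate 3, which had the highest motor neuron sum, the difference was larger, at −1.07 and −0.74. The part of these cells in the differences was not tested.

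Cacng2 (ENSMUSG00000019146, chromosome 15 from 77991748 to 78120028) encodes stargazin, the TARP whose loss causes the ataxia and seizures of the stargazer mouse. RPKM was 21.8, 21.4 and 31.5 in Dbx1 neurons, compared with 29.3, 21.5 and 10.02 in non-Dbx1 neurons. The groups overlapped, and the L2FC of 0.38 (interval −0.53 to 1.29, limma FDR = 0.954) was −0.04 without non-Dbx1 replicate 3. An antisense gene, A730060N03Rik, shares 323 bases with its exons, 5.86% of their merged length, and the counting did not use strand, so reads there cannot be assigned to either.

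Cacng8 (ENSMUSG00000053395, chromosome 7 from 3390683 to 3415648) encodes γ-8, best known as the TARP of the hippocampus. Its RPKM was 0.876, 0.0740 and 0.321 in Dbx1 neurons, compared with 0.259, 1.53 and 1.12 in non-Dbx1 neurons. These rested on 25, 2 and 8 reads and on 6, 47 and 38 reads, with overlapping groups (L2FC −0.45, interval −1.36 to 0.46, limma FDR = 0.951). The size depended on the scale and the samples, at −1.11 with a pseudocount of 0.1, −1.45 with voom and −1.20 as the log2 ratio of group means. It was −0.26 when Dbx1 replicate 2 was left out, −0.24 when non-Dbx1 replicate 2 was and −0.74 when non-Dbx1 replicate 1 was. The value of Dbx1 replicate 2 was below the 0.111 RPKM that 3 reads would give, a floor that covers counting error only.

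Of the type II genes, Cacng5 (ENSMUSG00000040373, chromosome 11 from 107874605 to 107915055) was detected well above its floor. RPKM was 8.003, 3.20 and 1.89 in Dbx1 neurons, compared with 2.51, 3.07 and 4.93 in non-Dbx1 neurons, and Dbx1 samples were both the highest and the lowest. The L2FC was 0.12 (interval −1.24 to 1.48, limma FDR = 0.990), and it was −0.34 when Dbx1 replicate 1 was left out and −0.04 when non-Dbx1 replicate 1 was. Cacng7 (ENSMUSG00000069806, chromosome 7 from 3332955 to 3368221) was barely detected, with 9, 6 and 8 reads in Dbx1 neurons, compared with 26, 1 and 3 in non-Dbx1 neurons. These are the smallest whole numbers that give its RPKM of 0.374, 0.264 and 0.380 and of 1.33, 0.0386 and 0.105. The L2FC of −0.05 (interval −0.84 to 0.73, limma FDR = 0.991) became 0.32 without non-Dbx1 replicate 1 and 0.34 with a pseudocount of 0.1, so no direction could be given.

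The make-up of the TARP RNA was described in the same way as that of the subunits, without a test. Cacng4 made up 25.9%, 34.8% and 32.2% of the summed TARP RPKM in Dbx1 neurons, compared with 40.2%, 44.8% and 41.9% in non-Dbx1 neurons. Cacng2 made up between 28% and 37.3% in Dbx1 neurons, compared with 23.6%, 18.8% and 13.8% in non-Dbx1 neurons. In neither did the groups overlap, although the RPKM of Cacng2 itself did. A lower share of Cacng4 leaves larger shares for the other genes of the sum. How often shares or ratios separate the groups over other genes was not computed. The ratio of Cacng4 to Cacng2 RPKM, chosen like the next ratio after the values were seen, was 0.829, 1.24 and 0.863 against 1.70, 2.38 and 3.04. Shares of Cacng3 ran from 27.4% to 35.8% of RPKM, with overlapping groups, but as shares of reads they were 26.0%, 30.1% and 24.9% against 31.3%, 31.2% and 34.1%, without overlap. The ratio of Cacng3 to Cacng2 RPKM was 0.951, 1.16 and 0.733 against 1.39, 1.72 and 2.59, also without overlap. Ratios of Gria2 to Gria4 and of Gria2 to Gria1 were computed as well, and in both the groups overlapped. Type I genes together made up 88.0% to 97.3% of the sum in every sample, with means of 93.6% ± 4.93 in Dbx1 neurons, compared with 95.8% ± 2.33 in non-Dbx1 neurons (SD, n = 3). The lowest type I share was that of Dbx1 replicate 1, in which Cacng5 reached 11.5%.

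**Figure D4:**
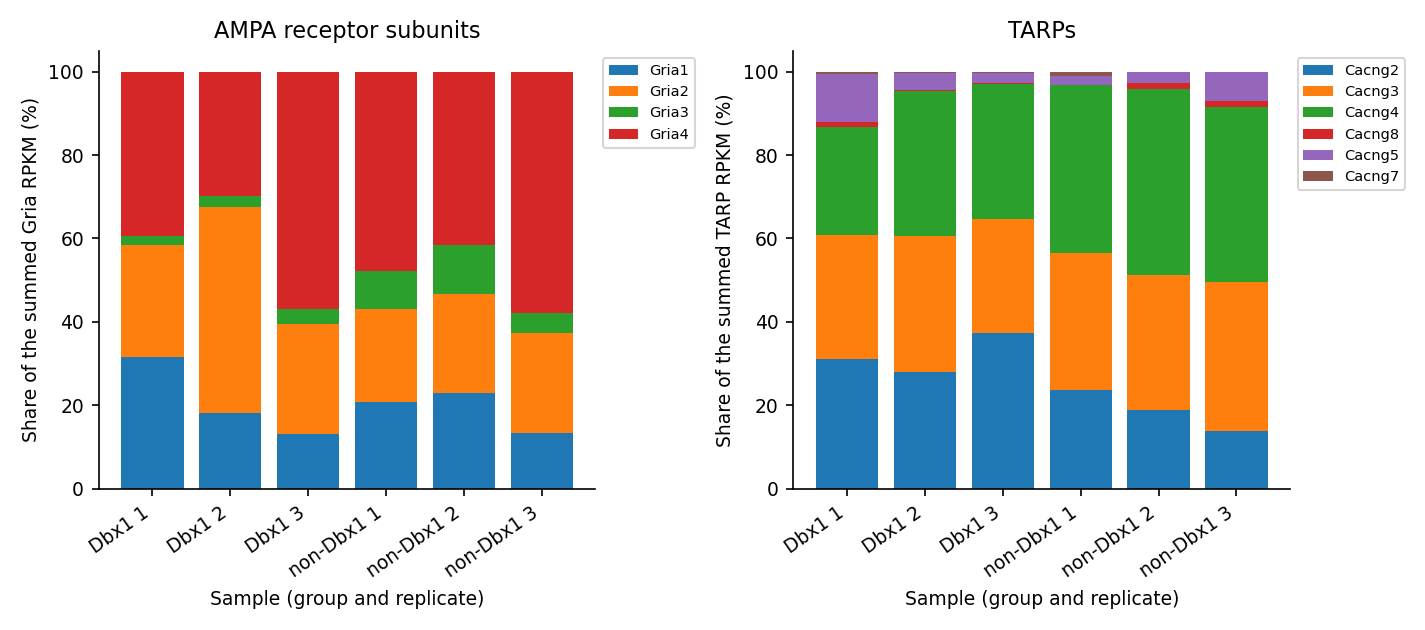
Share of each gene in the summed RPKM of the 4 Gria genes (left) and of the 6 TARP genes (right), in percent, 1 bar per sample. Cacng4 takes 25.9% to 34.8% of the TARP bars in Dbx1 neurons, compared with 40.2% to 44.8% in non-Dbx1 neurons, and Cacng2 takes more in every Dbx1 sample.

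The other genes of the system were taken from fixed lists, and 0 of those tested had a limma FDR under 0.1. Of 14 auxiliary and assembly proteins, 1 had an unadjusted limma p under 0.05, against 5.20% of all tested genes. The highest were Cnih2, a cornichon that helps export and slow the receptor, at 362 and 346 RPKM on average in the Dbx1 and non-Dbx1 samples, and Olfm1, a secreted receptor partner, at 129 and 177. Cnih3, the other cornichon of the list, had the largest L2FC. Its RPKM was 8.31, 9.10 and 10.4 in Dbx1 neurons, compared with 0.125, 0 and 4.44 in non-Dbx1 neurons, without overlap (L2FC 2.48, standard error 0.727, limma FDR = 0.804). Shisa6, which keeps receptors from desensitizing, measured 4.16, 3.68 and 11.6 against 2.00, 2.91 and 1.62 (L2FC 1.10, limma FDR = 0.924). Of the 14, 2 genes higher in Dbx1 (Cnih3 and Shisa6) and 1 lower (Olfm1) had groups that did not overlap. Over all tested genes 5.35% did so above and 5.24% below in Dbx1. The median L2FC of the list was 0.01, with 7 genes above 0 and 7 below.

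Among 18 scaffold and trafficking proteins the median L2FC was 0.24, beside 0.01 over all tested genes, with 13 above 0 and 5 below. L2FC was above 0 for 50.8% of all tested genes, and 2 of the 18 had an unadjusted limma p under 0.05, against 5.20%. Nptx2, a neuronal pentraxin that clusters AMPA receptors from outside the cell, measured 53.5, 187 and 20.5 RPKM in Dbx1 neurons, compared with 25.9, 7.51 and 8.53 in non-Dbx1 neurons (L2FC 2.22, limma FDR = 0.909). The related Nptx1 measured 43.1, 117 and 13.2 against 26.9, 7.57 and 8.27 (L2FC 1.69, limma FDR = 0.912). Both were highest in Dbx1 replicate 2, and both overlapped between the groups. Lrrtm1, a postsynaptic adhesion protein named because it was the other gene with p under 0.05, measured 23.1, 15.7 and 38.3 against 14.7, 11.5 and 12.5, without overlap (L2FC 0.86, limma FDR = 0.912). In this list 2 genes higher and 1 lower in Dbx1 had groups that did not overlap, against 5.35% and 5.24% of all tested genes. Nsf, the ATPase that binds GluA2, averaged 51.9 and 48.9 RPKM.

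Of the editing enzymes, Adarb1 measured 1.97, 1.17 and 1.41 RPKM in Dbx1 neurons, compared with 3.92, 0.990 and 1.13 in non-Dbx1 neurons (L2FC −0.14, limma FDR = 0.989). Adar, the ubiquitous editing enzyme, averaged 3.97 and 5.12 RPKM, and Adarb2, a relative without known editing activity, averaged 3.98 and 0.907 (L2FC 1.28, limma FDR = 0.924). The γ subunits that are not TARPs, Cacng1 and Cacng6, had reads in too few samples to be tested. Of the vesicular glutamate transporters Slc17a6 alone was tested. It measured 47.2, 128 and 54.9 RPKM in Dbx1 neurons, compared with 31.9, 35.1 and 13.6 in non-Dbx1 neurons (L2FC 1.44, limma FDR = 0.870). The paper's own test of Slc17a6 also missed an FDR under 0.1, which the paper argues is most likely a false negative. Slc17a7 and Slc17a8 averaged at most 0.312 RPKM in a group.

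**Figure D5:**
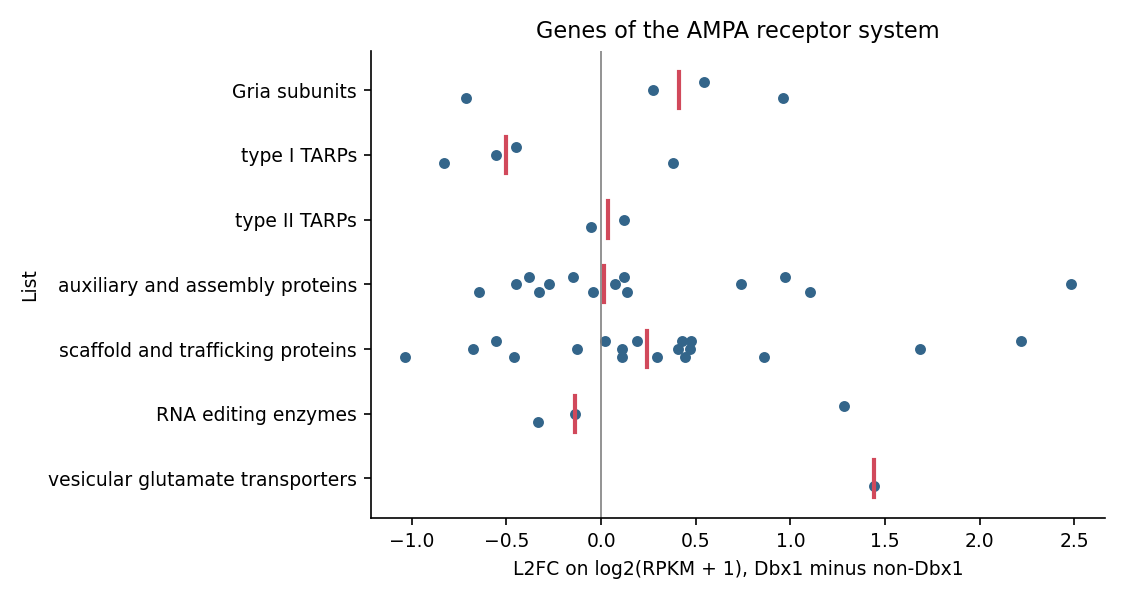
L2FC (Dbx1 minus non-Dbx1, on log2(RPKM + 1)) of the tested genes of each list, 1 point per gene, with the list median as a red bar. List medians run from −0.50 for the type I TARPs to 0.41 for the Gria subunits, beside the single transporter at 1.44. The highest point is Cnih3 at 2.48.

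Similarity to other genes was described for Gria4 and Cacng4, the subunit and the TARP with the highest deposited RPKM in the mean over all 6 samples. Likeness was the root mean square difference, over the 6 samples, of log2(RPKM + 1) centred on each gene's mean. Among 4423 genes with mean RPKM of at least 10, those most like Gria4 were Kifc2, Nol6 and Rnf170, with differences of 0.162, 0.194 and 0.212, where the median gene differed by 0.724. Those most like Cacng4 were Zfp622, Nsmce1 and Susd4, with 0.153, 0.169 and 0.180, where the median was 0.674. The names are the closest among 4423 genes over only 6 samples, so a gap to the median follows from the choice. They are given as a description.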

How the data were processed

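RNA-Seq was made from 3 Dbx1 and 3 non-Dbx1 samples of 15 neurons, each from a different mouse. The authors amplified complementary DNA, aligned single-end reads to mm10 with TopHat2, sorted them with SAMtools, counted them per gene name without strand with HTSeq on an Ensembl annotation whose release is not given in the sources used here, and deposited RPKM computed from total exon length, without scaling between samples. The authors tested counts with DESeq2, and RPKM was tested here on a log scale. At an FDR under 0.1 the paper names several genes, Hif1a and Gata2 among them, where the test used here called 1 of 17614. A count of 0 members therefore does not show that their levels are alike in the groups.

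Depth and reads per gene were recovered from the steps between RPKM values, to a tolerance of 0.01 reads. Of 27067 names with a value above 0, 27066 gave whole reads. Of the 11158 names with at least 100 reads whose summed distinct exons and merged exons differ in length in GENCODE vM21, 2235 gave whole reads for the sum and 20 for the merged length only. The rest matched neither length, so the definition rests on a minority of names. Reads of amplified complementary DNA are not independent molecules. Positions, lengths and sequences came from GENCODE vM21 on GRCm38, the same assembly as mm10.

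Groups were compared with limma 3.58.1 (lmFit, eBayes with a mean-variance trend, R 4.3.3) on log2(RPKM + 1) for genes with RPKM above 0 in 3 or more samples (17614 names). Tests were two-sided, and FDR followed Benjamini and Hochberg with a threshold of 0.1. The limma step was also run on simulated reads, with planted changes larger than the L2FC of any member. That run does not measure the power to find differences of the size seen in the members. Single comparisons used exact permutation tests in Python 3.11.15 with numpy 2.4.6 and pandas 2.3.3, and plots used matplotlib 3.10.9. Members and lists were chosen with earlier results of these data known. All members are named, and in other lists the 2 genes with the highest mean RPKM and the 2 with the largest absolute L2FC. Cacng1, Cacng6, Adarb1, Slc17a7 and Slc17a8 are named beside them, as is the group of 3 genes most like a member. Alternatives were a pseudocount of 0.1, other filters on low values, size factors, quantile normalization, no trend, voom on recovered reads, the replicate number as a block, each sample left out, and, added after seeing the data, merged exon lengths.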

Additional observations from a re-analysis of the deposited data

How the results depend on the processing

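Under all 15 alternatives 0 of the members tested had a limma FDR under 0.1, the lowest being 0.745, and 4 to 6 had an L2FC above 0. Over all genes, the single gene lower in the Dbx1 samples at an FDR under 0.1 became 3 without a mean-variance trend and 0 with a pseudocount of 0.1, with all genes above 0 in at least 1 sample, with voom and with the replicate block. It ranged from 0 to 1 when samples were left out, being 0 without non-Dbx1 replicate 2 or 3. The number of genes higher in the Dbx1 samples ranged from 0 to 1 with samples left out, the 1 arising without non-Dbx1 replicate 2. With replicate numbers entered as a block, 0 genes passed in either direction, and unadjusted limma p was under 0.05 for 440 and 379 genes. Same-numbered samples deviated from their group means with correlations of −0.107, 0.0248 and −0.0522, the samples share only a number, and 0 members passed with the block or without it. Cacng4 kept its direction in all 16 alternatives, with an L2FC from −1.07 to −0.65, and its unadjusted limma p was under 0.05 in 12 of 15, the exceptions being without Dbx1 replicate 1, non-Dbx1 replicate 1 or non-Dbx1 replicate 2. Direction was also kept by Cacng3, from −0.74 to −0.43, Cacng8, from −1.45 to −0.24, Gria2, from 0.60 to 1.41, Gria1, from 0.15 to 0.81, and Gria3, from −1.14 to −0.44. L2FC changed sign for Gria4, at −0.20 without Dbx1 replicate 3 (−0.20 to 0.61 with samples left out), for Cacng2, at −0.04 when non-Dbx1 replicate 3 was dropped (−0.035 to 0.70), and for Cacng5, at −0.34 when Dbx1 replicate 1 and −0.04 when non-Dbx1 replicate 1 was dropped (−0.34 to 0.48). It did so for Cacng7 at 0.34 with a pseudocount of 0.1 and at 0.32 when non-Dbx1 replicate 1 was dropped (−0.26 to 0.32). The Gria2 share was higher in the Dbx1 samples by 3.22 to 14.8 points with samples left out. The type I share differed by −4.02 to 0.64 points, the sign changing without Dbx1 replicate 1. Of the 9 neighbouring pairs in the order of levels, 0 had the same sign in all 6 samples, 1 within the Dbx1 samples alone, 6 within the non-Dbx1 samples alone, 2 in the order by the median, 2 with merged exon lengths, and 0 to 4 with a sample left out, 4 of them without Dbx1 replicate 1. An order within 3 samples needs a common sign in 3 only. Apart from these constructions and the fewer samples, the cause of each change was not tested. Cacng7 and Cacng8 had as few as 1 and 2 reads in a sample, which limits the precision of their values, and voom did not test Cacng7.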
